A study of Mus musculus with 15 samples.

Results

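Embryonic stem cells (ESC) carrying a frameshift mutation of Hmga1 were compared with WT ESC by strand-specific RNA-seq. The comparison used 5 of the 15 samples of the series, the 3 WT samples (a, b and c) and the 2 Hmga1 KO samples (a and b). It covers 13912 of the 21662 genes of the count table, all those whose counts averaged at least 10 over the 9 samples of the experiment. The other samples of that experiment, 2 with an Hmga1 and 2 with an Hmga2 add-back (the KO cells with the tagged protein put back), entered the fit but are not described here. The ESC were of the 159 line, a mixed 129Sv-C57Bl/6 background, and were grown with serum and LIF on feeder cells or gelatine. Per the study's methods the parental line expresses the biotin ligase BirA-V5 from the CAG promoter. The KO line was a clone isolated after transfection with Cas9, a guide against a junction of an Hmga1 exon with an intron, and a brief puromycin selection. Each genotype is a single line, so an effect of the mutation and a difference between lines cannot be told apart. The samples are independent cultures. Their letters were taken as the study's batches, which per its methods group libraries by the day of their preparation and by flow cell. WT c is the only WT or KO sample of its batch. With the batch term it therefore adds next to nothing to the fitted fold changes, which rest on batches a and b.

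Hmga1 is a small, abundant chromatin protein of the high mobility group A family, whose members bind the minor groove of AT-rich DNA through short motifs called AT-hooks. In ESC it is the member in use, while Hmga2 is known for other stages of development. The family has been described both as a set of regulators of particular genes and as a general component of AT-rich chromatin, and the present comparison shows where the transcriptome of the KO line departed from WT and where it did not.

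In the GENCODE annotation of the NCBIM37 (mm9) genome, Hmga1 spans chr17:27693565-27700619 on the plus strand and has 5 exons. Exon 3, which the study targeted, lies at chr17:27697873-27697956 and all of its 84 bases are coding. The end of this exon is shown because a frameshift here sits beside the splice donor. In the line below, from chr17:27697937-27697966 on the plus strand, the first 20 bases are exonic, the last 10 are intronic and the capitals mark the donor dinucleotide.
Hmga1 exon 3 donor: agggcgccgccaagacccggGTgagcctcc

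Summed counts were between 13465399 and 34952136 in the 5 samples, with batch b the shallowest. WT a and WT c had at least 1 count in 19677 and 19531 genes, against 16088 to 17227 in WT b and both KO samples, although KO a had more counts in all than any WT sample. All 8 ESC markers examined (such as Pou5f1, Sox2 and Nanog) were expressed, with mean levels between 82.0 and 1015 CPM (reads of the gene per 1e+06 reads of the sample) in WT and between 84.5 and 1199 in KO. Of 12 feeder fibroblast markers, 5 were tested, and these summed to 8.92 to 15.1 CPM in the WT samples and to 12.9 and 13.9 CPM in KO. The other 7, the collagen genes Col1a2 and Col3a1 among them, had at most 20 counts in any sample.

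Hmga1 itself was measured first, as a check of the labels. Its level was 464 (a), 276 (b) and 221 (c) CPM in the WT samples and 217 (a) and 96.1 (b) CPM in the KO samples, and values below are listed in the same order. Both KO samples were below every WT sample, KO a by a small margin, and within batches the KO had 46.7% (a) and 34.8% (b) of the WT level. The fitted log2 fold change was -1.29 (SE 0.17, 95% interval -1.67 to -0.91, edgeR's quasi-likelihood test, Benjamini-Hochberg adjusted p = 0.0534), so that the targeted gene did not itself reach the threshold used for calls. Per length, WT had 156 ± 62.4 RPKM (reads per kilobase of transcript, scaled to library size as CPM are, SD, n = 3) and KO 76.5 ± 41.7 RPKM (n = 2). A count of Hmga1 reads cannot by itself tell intact from altered RNA. Per the study, the transcript that remains in the KO line lacks the targeted exon, and no protein of the gene was detected.

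Fitted differences of the other members of the high mobility group were small, but for some the batches differed in direction. Hmgn5 had 176% (a) and 69.5% (b) of the WT level, and Hmgb3 had 151% (a) and 71.6% (b). Of the 13 members tested, Hmga1 included, 6 had the same sign in both batches (46.2%, against 62.1% of all genes). Hmga2, the closest relative, was at 23.8, 12.8 and 15.8 CPM in WT and at 18.9 and 13.8 CPM in KO, and the groups overlapped. Its log2 fold change was -0.15 (SE 0.19, 95% interval -0.60 to 0.29). Per length Hmga2 stood at 4.08 ± 1.33 RPKM in WT, far under Hmga1, and at 3.83 ± 0.84 RPKM in KO. The 11 further HMG genes tested (Hmgb, Hmgn and related genes) had log2 fold changes between -0.25 and 0.13, 1 of them had an unadjusted p under 0.05 (Hmgxb4, at -0.25, SE 0.10), and for 10 the 95% interval lay inside a 2-fold change either way.

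Calls required a p under 0.01 in edgeR's quasi-likelihood test, after Benjamini-Hochberg adjustment across the genes tested, together with a 2-fold change or more. By this rule 3 of 13912 genes (0.0216%) were called. Tuba3a rose in the KO, and Eif2s3y and Uty fell. At an adjusted p under 0.05, 9 genes (0.0647%) were found, the further ones being Hydin, Smc1b, Calml4, Usp26 and Bnip3, all higher, and Nudt3, which was lower. The call count rested on both KO samples. Without KO a or without KO b no gene was called, although 740 and 1179 genes had an unadjusted p under 0.05, without WT b 62 genes were called, and Tuba3a was no longer among the calls without WT a or when the 5 WT and KO samples were fitted alone. The Wald test of DESeq2 on the same design called 76 genes, 55 higher and 21 lower, the 3 genes among them.

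**Figure D1:**
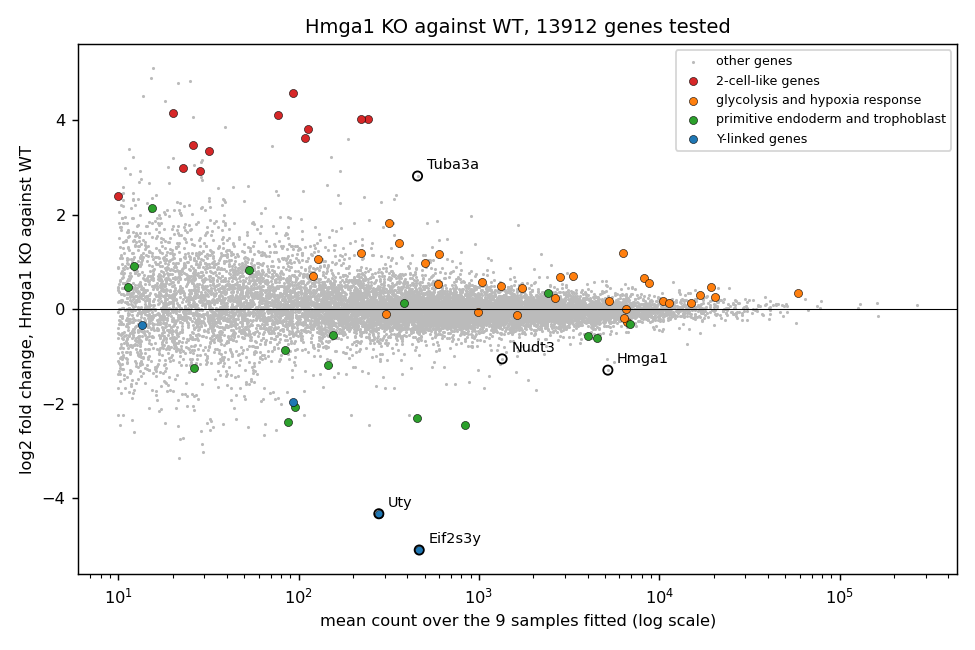
Log2 fold change of Hmga1 KO against WT (y axis) by mean count over the 9 samples fitted (x axis, log scale), 1 point per gene tested. Genes of 4 lists are coloured and 5 genes are named. Most genes with high counts lie close to 0, with Hmga1 at -1.29, Tuba3a at 2.81 and the Y-linked Uty and Eif2s3y at -4.32 and -5.09.

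Across all genes tested the median log2 fold change was -0.01 and the quartiles were -0.17 and 0.19. An unadjusted p under 0.05 was found for 973 genes higher in KO (6.99%) and 774 genes lower (5.56%). Both KO samples lay above all 3 WT samples for 1806 genes (13%) and below them for 1463 genes (10.5%). The counts given below for lists are to be read beside these shares. For 10071 genes (72.4%) the 95% interval of the fold change lay wholly inside a 2-fold change in either direction, so for these the data limit the size of any difference. This depended on depth. Among the 4806 genes whose mean count was 1000 or more, 97.7% were limited in this way and 15 differed by 2-fold or more, while among the 2274 genes whose mean count was under 50 only 6.99% were, with a median SE of 0.48. Of all genes, 62.1% had the same sign of the KO minus WT difference in both batches. Values of single genes depended on the samples, above all on WT a. Among the 91 genes named here whose log2 fold change was 0.5 or more in either direction, leaving out WT a made 35 smaller by over 1.5 times, leaving out KO a made 18 so, and leaving out WT b made 13 larger.

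Tuba3a (chr6:125228292-125236060, minus strand) encodes an alpha-tubulin best known from the testis. Its level was 4.36, 3.10 and 3.74 CPM in WT and 36.8 and 16.7 CPM in KO. Both KO samples stood apart from the narrow WT range. The log2 fold change was 2.81 (SE 0.21, 95% interval 2.33 to 3.29, edgeR adjusted p = 0.00298). Its near copy Tuba3b, elsewhere on chromosome 6, was at 1.11, 2.02 and 1.87 CPM in WT and at 11.2 and 6.69 CPM in KO, with a log2 fold change of 2.62 (SE 0.37, edgeR adjusted p = 0.0534). Of the windows of read length (47 bases) in Tuba3a transcripts, 34.4% are shared with Tuba3b, so part of the count of either gene can come from the other. The other 15 tubulin genes tested had log2 fold changes between -0.20 and 1.22. Of these Tubb4a, expressed near 1 CPM in WT, was the highest (SE 0.60, and 0.22 without WT a), and 1 had an unadjusted p under 0.05, Tubb2b (0.35, SE 0.12). Per length the Tuba3a RNA went from 2.47 ± 0.42 RPKM in WT to 17.7 ± 9.41 RPKM in KO.

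Both genes that fell lie on the Y chromosome. Eif2s3y (Y:346986-365290), which encodes a subunit of translation initiation factor eIF2, was at 47.6, 61.6 and 73.9 CPM in WT and at 1.18 and 2.20 CPM in KO. It fell by 5.09 on the log2 scale (SE 0.21, edgeR adjusted p = 7.4e-05). Uty (Y:433304-582202), a relative of the histone H3K27 demethylase Kdm6a, was at 30.9, 41.4 and 37.0 CPM in WT and at 1.07 and 3.04 CPM in KO. It fell by 4.32 (SE 0.28, edgeR adjusted p = 0.00155). Neither KO sample came near any WT sample for these genes, yet 42 and 29 reads of Eif2s3y and 38 and 40 of Uty remained in KO a and KO b. Ddx3y, an RNA helicase gene, was at 7.18, 11.9 and 12.99 CPM in WT and at 1.74 and 3.19 CPM in KO, with a log2 fold change of -1.97 (SE 0.35, edgeR adjusted p = 0.0842). Uba1y, near 1 CPM throughout, was the fourth gene tested (log2 fold change -0.33, SE 0.62), with groups that overlapped. Few of the windows are shared with other genes, none for Eif2s3y, 0.57% for Uty and 0.11% for Ddx3y. The 7 X-linked paralogs of Y genes had a median log2 fold change of -0.20, none had an unadjusted p under 0.05, and all 7 intervals lay inside a 2-fold change. In a bulk sample, fewer cells that express a gene and less RNA per cell cannot be told apart, here and for the groups described next.

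**Figure D2:**
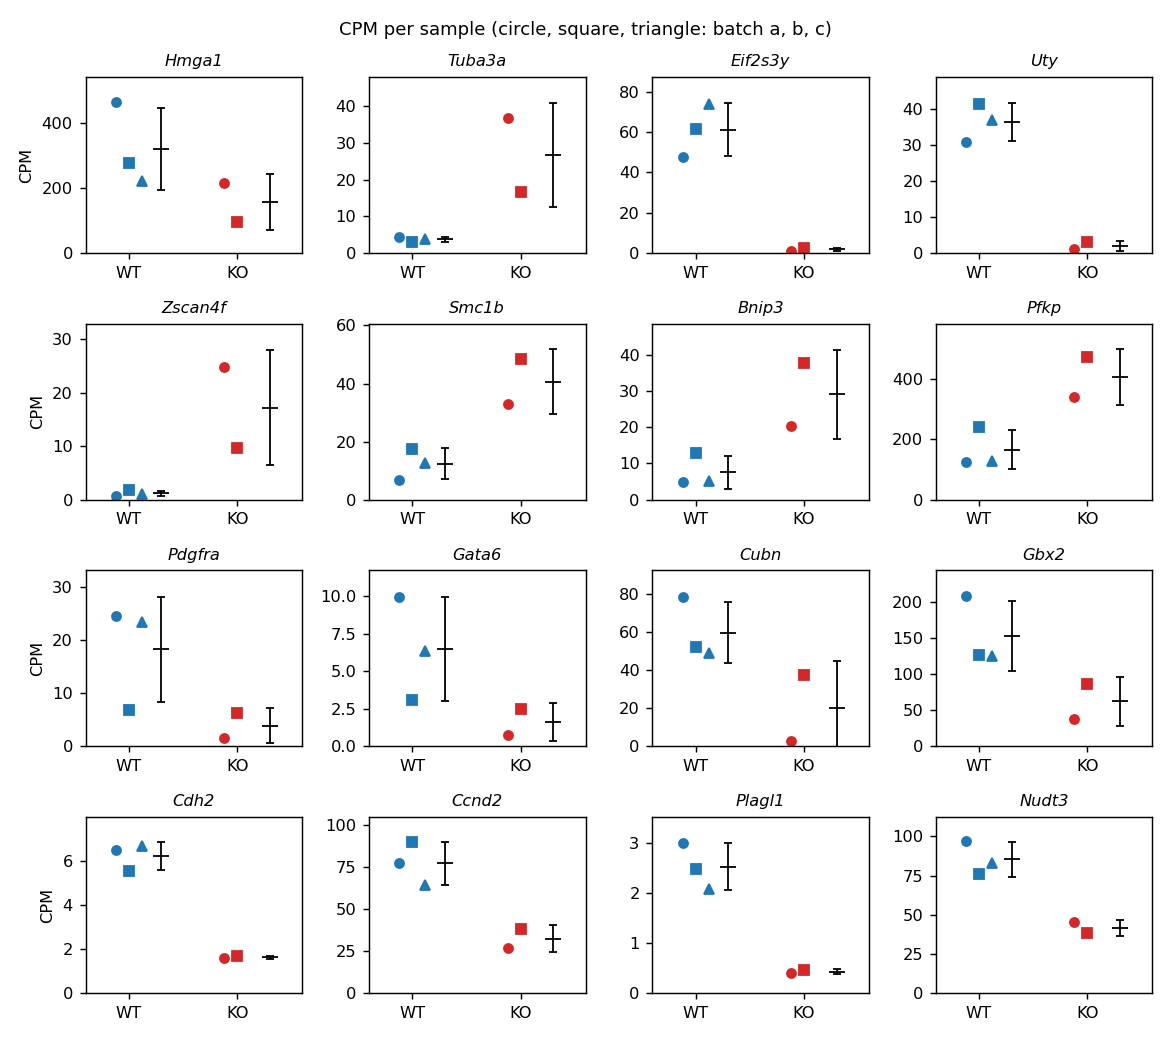
CPM of 16 genes in each sample (y axis, linear from 0) for WT (blue) and Hmga1 KO (red). Symbols give the batch, the dash and bar beside them the mean and SD (n = 3 and n = 2). Tuba3a, Zscan4f, Smc1b, Bnip3 and Pfkp are higher in both KO samples, and the SD bar of Cubn in KO runs below 0 because KO a (2.55 CPM) and KO b (37.4 CPM) differ so widely.

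Genes of the 2-cell-like state were higher in the KO. This state is entered by a small fraction of ESC at a time and is marked by the Zscan4 cluster, known for its role at telomeres, together with Tcstv and Usp17l genes. Of 20 genes listed 12 were tested, and these were higher in KO with an unadjusted p under 0.05. This count is partly set by the filter on low counts, since 8 of the 12 had a mean count under 10 in WT and were tested because of their level in other samples. The 4 with a WT mean of 10 or more were also all higher. So were the 6 with a mean count of at least 50 over all samples. That mean includes the KO samples, so these 6 are no separate check on the filter. Over the 12, the median log2 fold change was 3.71, and it was 4.22 within batch a and 2.22 within batch b. None was called by edgeR, while DESeq2 called 7.

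Zscan4f, the most abundant of them in WT, was at 0.70, 1.71 and 0.996 CPM in WT and at 24.8 and 9.58 CPM in KO, a log2 fold change of 4.01 (SE 0.60, edgeR adjusted p = 0.0583). Zscan4e was at 0.19, 0.62 and 0.37 CPM in WT and at 11 and 4.94 CPM in KO (log2 fold change 4.56, SE 0.63, edgeR adjusted p = 0.0534). Zscan4c was at 0.73, 2.02 and 0.41 CPM in WT and at 28.8 and 10.7 CPM in KO. In each case KO a was the higher of the KO samples. The cluster members are not independent measurements. Between 48.7% (Zscan4d) and 92.3% (Zscan4e) of the 47-base windows of the 5 members compared occur in transcripts of another gene, mostly of the same cluster. Tcstv3 rested on few reads, with 3, 1 and 1 counts in WT and 81 and 11 in KO. Usp17lc, a deubiquitinase gene of a separate family, was at 0.19, 0.31 and 0.21 CPM in WT and 2.89 and 1.75 CPM in KO (log2 fold change 3.35, SE 0.47). The 12 genes summed to 3.86, 8.46 and 3.57 CPM in WT and to 115 and 43.7 CPM in KO, so they remained a small part of the transcriptome. Dppa3, a gene of the egg and early embryo, was at 1.99, 6.44 and 3.15 CPM in WT and at 23.9 and 6.08 CPM in KO. Only KO a was above WT for this gene.

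Germline and meiosis genes also leaned upward. Of 27 tested, 12 were higher with an unadjusted p under 0.05 (44.4%, against 6.99% of all genes) and none was lower. The median log2 fold change was 0.47 (0.50 in batch a, 0.45 in batch b). The count fell to 4, and the median to 0.23, without KO a. Smc1b, the meiotic form of a cohesin subunit, was at 6.89, 17.5 and 12.7 CPM in WT and at 32.8 and 48.6 CPM in KO. Its log2 fold change was 1.86 (SE 0.20, edgeR adjusted p = 0.0224). Sohlh2, a transcription factor of early germ cells, was steady within each group, at 9.20, 8.69 and 8.63 CPM in WT and 20.1 and 19.2 CPM in KO (log2 fold change 1.14, SE 0.16). Hormad1, which acts on meiotic chromosome axes, was at 8.79, 14.7 and 13.5 CPM in WT and at 23.5 and 23.9 CPM in KO (1.09, SE 0.21, and 0.72 without KO a). Rhox6, a reproductive homeobox gene of the X chromosome, was at 2.31, 2.09 and 3.57 CPM in WT and at 8.53 and 2.58 CPM in KO, where KO b lay inside the WT range (log2 fold change 1.28, and 0.40 without KO a). Smaller differences were measured for Piwil2 of the piRNA pathway (0.57, SE 0.17, and 0.32 without WT b) and for the RNA-binding protein gene Dazl (0.69, SE 0.24, and 0.36 without WT b), in both cases with the KO samples above all WT samples. Syce2, the most abundant member in WT, had a log2 fold change of 0.15 (SE 0.15).

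Among the genes with the smallest p were others with higher levels in the KO. Hydin, needed for motile cilia, was at 6.64, 9.0 and 7.80 CPM in WT and at 21.8 and 33.8 CPM in KO (log2 fold change 1.82, SE 0.18, edgeR adjusted p = 0.0201). Usp26, an X-linked deubiquitinase gene of the testis, was at 1.39, 2.33 and 1.37 CPM in WT and at 15.7 and 10.5 CPM in KO (2.91, SE 0.34). Calml4, a calmodulin-like gene, was at 1.39, 3.26 and 3.28 CPM in WT and at 9.96 and 12.8 CPM in KO (2.42, SE 0.26). None of these groups overlapped, and the KO minus WT difference was at least 1.70 on the log2 scale in both batches for Hydin, Usp26 and Calml4. Slc11a1, a metal transporter of phagocytes, and Arhgap30, which encodes a GTPase-activating protein, had log2 fold changes of 1.66 (SE 0.22) and 1.47 (SE 0.20).

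Genes of glycolysis and the hypoxia response formed the broadest group of higher genes among abundant transcripts. The hypoxia response runs through the transcription factor HIF, whose targets include most glycolytic enzymes, glucose and lactate transporters and the oxygen sensors that limit HIF itself. Of 31 genes tested, 19 were higher in KO with an unadjusted p under 0.05 (61.3%, against 6.99% of all genes). Only 1 was lower (3.23%, against 5.56%). Both KO samples lay above all WT samples for 19 of the 31, against 13% of all genes. The median log2 fold change was 0.46, and it was 0.47 in batch a and 0.48 in batch b, with the same sign in both batches for 29 of the 31. No member was called by edgeR. The number with an unadjusted p under 0.05, in either direction, was 20 with all samples and 11 without KO b, while the median stayed between 0.40 and 0.52 under all 15 alternatives run.

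Bnip3, a mitochondrial receptor for autophagy, was at 4.74, 12.9 and 5.02 CPM in WT and at 20.5 and 37.9 CPM in KO. WT b was higher than the other WT samples, and KO b higher than KO a. The log2 fold change was 1.82 (SE 0.21, edgeR adjusted p = 0.0329). Pfkp, the platelet form of phosphofructokinase, was at 126, 240 and 129 CPM in WT and at 340 and 473 CPM in KO (1.19, SE 0.16, edgeR adjusted p = 0.0534). The lactate exporter gene Slc16a3 was at 14.6, 24.7 and 10.6 CPM in WT and at 38.8 and 47.3 CPM in KO (1.17, SE 0.17). Ddit4, an inhibitor of mTORC1 induced by stress, was at 5.66, 8.22 and 6.64 CPM in WT and at 16.98 and 19.08 CPM in KO (1.40, SE 0.41, and 0.83 without WT a). These 4 genes showed no overlap between groups. Enzymes with high levels differed less. The log2 fold change was 0.68 (SE 0.11) for triosephosphate isomerase Tpi1, 0.66 (SE 0.12) for phosphoglycerate kinase Pgk1 and 0.34 (SE 0.12) for pyruvate kinase Pkm, the most abundant member. The glucose transporter gene Slc2a1 stood at 0.55 (SE 0.15) and the growth factor gene Vegfa at 0.50 (SE 0.15). Hif1a, which encodes the regulated subunit of HIF, was the lower member, at 292, 310 and 334 CPM in WT and 250 and 251 CPM in KO (log2 fold change -0.26, SE 0.10). Reads of Gapdh and Pgam1 are shared with copies (78.9% and 69.0% of windows), and neither gene had an unadjusted p under 0.05.

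The promoters of Bnip3 and Pfkp, the members with the smallest p, are shown because most genes of this list leaned the same way. They run from 250 bases before to 50 after the transcription start in RefSeq (GRCm38.p6), 5′ to 3′ on the gene's strand. Capitals mark the core of the HIF response element, searched as ACGTG and GCGTG on both strands (so also CACGT and CACGC), where neighbouring matches can overlap. Bnip3 (chr7:138909457-138909756, minus strand) held 5 matches and Pfkp (chr13:6648722-6649021, minus strand) held 4.
Bnip3 promoter: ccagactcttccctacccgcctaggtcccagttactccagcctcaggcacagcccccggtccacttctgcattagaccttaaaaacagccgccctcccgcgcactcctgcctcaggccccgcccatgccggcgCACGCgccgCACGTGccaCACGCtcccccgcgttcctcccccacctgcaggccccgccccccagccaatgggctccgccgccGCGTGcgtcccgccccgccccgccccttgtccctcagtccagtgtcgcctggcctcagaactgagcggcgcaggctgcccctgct
Pfkp promoter: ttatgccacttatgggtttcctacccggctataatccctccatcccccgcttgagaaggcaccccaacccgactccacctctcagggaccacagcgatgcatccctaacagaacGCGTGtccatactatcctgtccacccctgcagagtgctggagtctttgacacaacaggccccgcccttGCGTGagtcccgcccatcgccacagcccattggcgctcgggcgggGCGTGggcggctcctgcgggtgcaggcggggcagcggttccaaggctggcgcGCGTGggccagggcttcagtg
At least 1 match was present in 27 of the 29 list members with a RefSeq promoter (93.1%) and in 7316 of 10882 tested genes (67.2%), so the motif is common, and a match is a description of the sequence only.

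**Figure D3:**
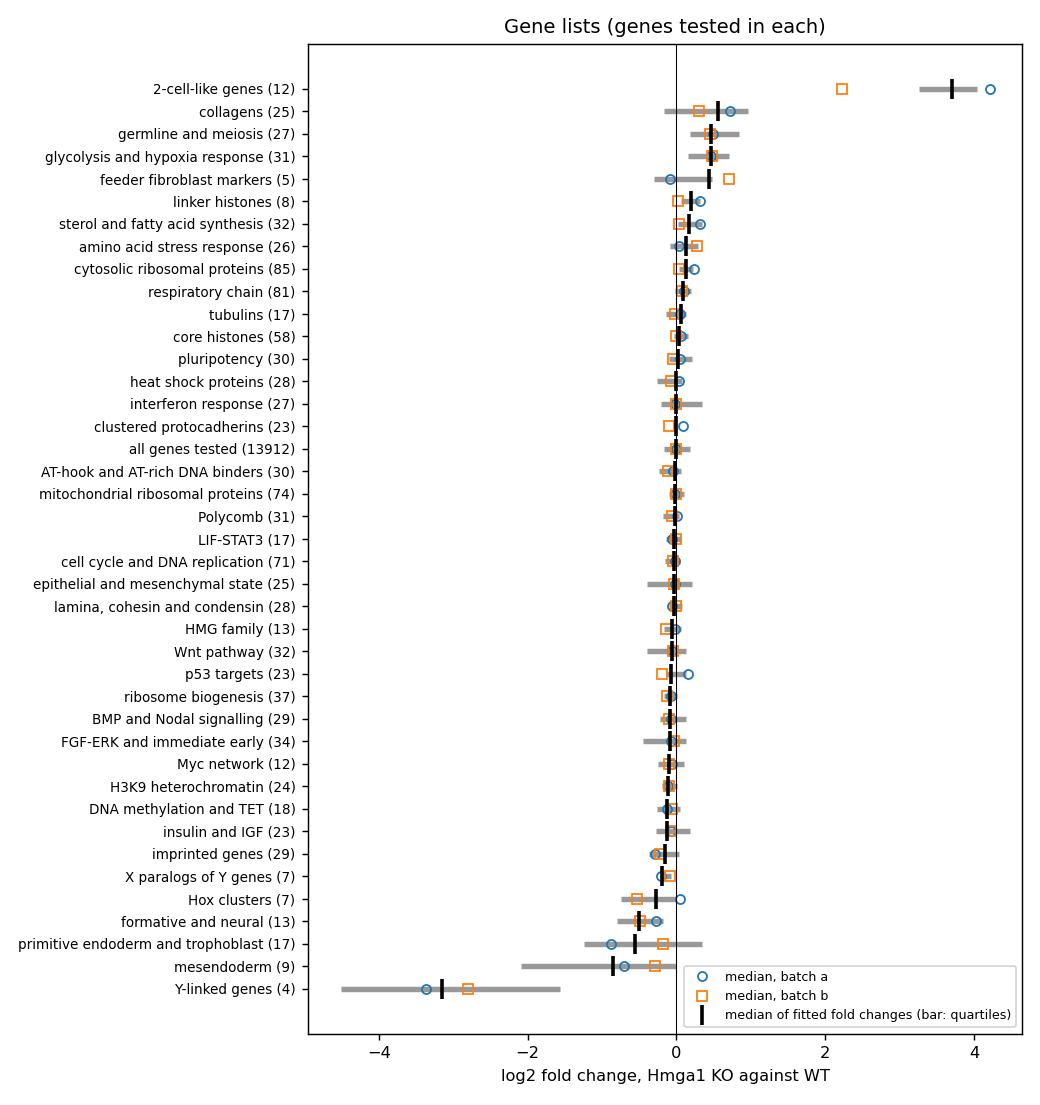
Median log2 fold change of Hmga1 KO against WT (x axis) for 40 gene lists and for all genes tested, with the number of genes in brackets. Black ticks are medians of the fitted values, grey bars their quartiles, circles and squares the medians within batches a and b. The 2-cell-like genes (3.71) and the Y-linked genes (-3.15) lie far from 0, and most lists of housekeeping genes lie within 0.2 of it.

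Markers of the primitive endoderm, the extraembryonic lineage that ESC cultures give rise to at low levels, were lower in KO, mainly in KO a. Of 17 primitive endoderm and trophoblast genes tested, 6 were lower and 2 higher with an unadjusted p under 0.05. These are 35.3% and 11.8%, against 5.56% and 6.99% of all genes. The median log2 fold change was -0.56. Within batch a it was -0.88 and within batch b -0.18. Gata6, the transcription factor that sets the lineage, was at 9.96, 3.10 and 6.35 CPM in WT and at 0.73 and 2.51 CPM in KO. Its log2 difference was -3.63 in batch a and -0.30 in batch b, and the fitted value was -2.39 (SE 0.77). The endocytic adaptor gene Dab2 was at 50.6, 16.4 and 30.1 CPM in WT and at 3.42 and 12.4 CPM in KO. The endocytic receptor gene Cubn was at 78.3, 51.9 and 48.9 CPM in WT and at 2.55 and 37.4 CPM in KO. Sox7 and Gata4 had log2 fold changes of -2.06 (SE 0.71) and -1.19 (SE 0.51). Outside the list, the basement membrane collagen gene Col4a1 was at 122, 105 and 112 CPM in WT and at 14.9 and 88.7 CPM in KO (log2 fold change -1.50, SE 0.79, unadjusted p = 0.092, and -0.48 without KO a). The 2 higher genes were Krt7, a keratin of simple epithelia (2.14, SE 0.66), and Ascl2, a factor of the trophoblast (0.82, SE 0.34). Krt7 passed the filter through samples other than WT, and its value was 0.98 without WT a. For each of Gata6, Dab2, Cubn and Col4a1 both KO samples were below all WT samples, but KO b was close to WT b and KO a far below. The number of list members with an unadjusted p under 0.05 was 8 with all samples, 2 without KO a, 1 without WT a and 10 without WT b, and Gata6, Dab2 and Sox7 stood at -0.52, -0.83 and -0.43 without WT a. Without WT a, Cubn and Gata4 stood at -1.10 and -0.38. Sparc, the most abundant member, had groups that overlapped (log2 fold change -0.31, SE 0.29).

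**Figure D4:**
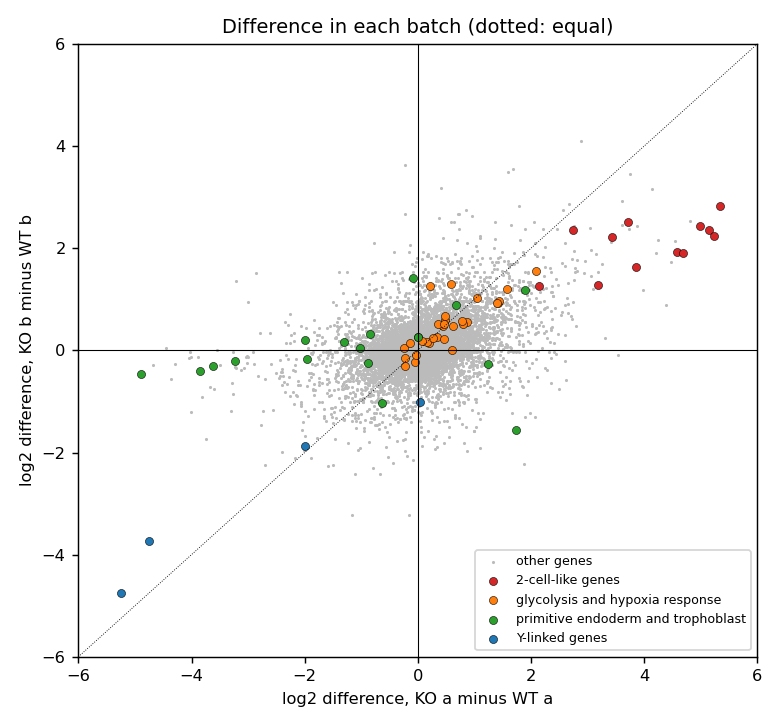
Log2 difference between KO and WT in batch a (x axis) and in batch b (y axis), 1 point per gene tested, with 4 lists coloured and equality dotted. Genes of glycolysis and hypoxia lie near the diagonal, 2-cell-like genes are high in both batches and higher in batch a, and several primitive endoderm genes lie far to the left with values near 0 in batch b.

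Mesendoderm genes followed the same pattern by sample, and whether they report on the same cells as the primitive endoderm genes was not tested. Of 9 tested, 4 were lower with an unadjusted p under 0.05 (44.4%, against 5.56% of all genes) and none higher. The median was -0.86 (-0.71 in batch a, -0.29 in batch b). The growth factor receptor gene Pdgfra was at 24.5, 6.83 and 23.4 CPM in WT and at 1.57 and 6.23 CPM in KO, and Sox17 at 6.36, 2.72 and 4.19 CPM in WT and at 0.17 and 2.20 CPM in KO. KO b and WT b were nearly alike for both genes. Foxa2 had 49, 22 and 31 counts in WT and 3 and 14 in KO (unadjusted p = 0.0949). With KO a left out, or WT a, no member of the list had an unadjusted p under 0.05, and Pdgfra went from -2.44 to -0.37 without WT a and Sox17 from -2.42 to -0.84 without KO a.

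Of 13 formative and neural genes, 5 were lower and 1 higher with an unadjusted p under 0.05. These are 38.5% and 7.69%, against 5.56% and 6.99% of all genes. The median of the 13 was -0.50 (-0.28 in batch a, -0.49 in batch b). N-cadherin, Cdh2, was the most even of them, at 6.48, 5.51 and 6.68 CPM in WT and at 1.57 and 1.67 CPM in KO. Its log2 fold change was -1.90 (SE 0.30, edgeR adjusted p = 0.0655). Sox1, a gene of early neural cells, was at 35.6, 12.3 and 26.8 CPM in WT and 9.29 and 8.21 CPM in KO (-1.37, SE 0.36, and -0.65 without WT a). Sox11 was at 74.3, 86.7 and 70.9 CPM in WT and at 33.6 and 61.9 CPM in KO (-0.80, SE 0.18, and -0.49 without KO a). Pax6 was lower mainly in batch b, at 17.5 CPM in WT b and 4.41 CPM in KO b (-0.96, and -0.35 without KO b). Otx2, a gene of the primed state, was the higher one (0.67, SE 0.25, and 0.24 without KO a). The 6 genes with an unadjusted p under 0.05 were 3 without WT a. Dnmt3b, the most abundant, stood at -0.27 (SE 0.20).

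The pluripotency genes did not share this. Their median log2 fold change was 0.02, and for 27 of 30 the interval lay inside a 2-fold change. Of the 30, 6 were higher and none lower with an unadjusted p under 0.05, Dppa3 among them, but 3 had without WT a, 1 without KO a and 14 without WT b. The higher genes with all samples are 20%, against 6.99% of all genes. Without KO a, the value of Dppa3 was 0.52. Tex19.1, a gene of ESC and germ cells that restrains transposons, was at 35.2, 42.7 and 35.4 CPM in WT and at 71.3 and 61.5 CPM in KO (0.79, SE 0.17, and 0.48 without KO a). Tbx3 was at 101, 79.4 and 67.9 CPM in WT and at 143 and 114 CPM in KO (0.51, SE 0.16). Over the 8 ESC markers the log2 fold changes ran from -0.19 to 0.44.

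In signalling pathways the differences were confined to a minority of the genes. Of 32 Wnt pathway genes 8 were lower with an unadjusted p under 0.05 and none higher, against 5.56% lower and 6.99% higher over all genes, and the median was -0.06. Of these 8, Sp5, Dkk1, Cdx1, Axin2 and Notum are known as targets of the pathway, and Dkk1, Axin2 and Notum also restrain it. Sp5 was at 2.91, 2.48 and 1.37 CPM in WT and at 0.14 and 0.68 CPM in KO (log2 fold change -3.15, SE 0.66, 5 and 9 counts in KO, and -1.97 without WT a). Dkk1 was at 4.49, 1.63 and 2.74 CPM in WT and at 0.20 and 1.596 CPM in KO, where only batch a differed (log2 fold change -2.42, and -0.46 without WT a). Axin2 had a log2 fold change of -0.94 (SE 0.39) and the receptor gene Fzd2 of -0.88 (SE 0.23), while beta-catenin, Ctnnb1, stood at 0.03 (SE 0.10). An unadjusted p under 0.05 was left for 2 Wnt genes without KO a and for 3 without WT a. Axin2 had a log2 fold change of 0.00584 when WT a was left out. In the LIF-STAT3 list of 17 genes, 2 were lower with an unadjusted p under 0.05 (11.8%, against 5.56% of all genes). Gbx2 was at 208, 126 and 124 CPM in WT and at 37.9 and 86.2 CPM in KO (-1.72, SE 0.49, and -0.41 without WT a), and Junb, an immediate early gene, overlapped between groups (-0.59, SE 0.25, and -0.13 without KO a). Of 34 FGF-ERK and immediate early genes, 8 were lower and 2 higher, and these 10 were 3 without WT a, 2 without KO a and 4 without KO b. The lower genes are 23.5% of this list and the higher 5.88%, against 5.56% and 6.99% of all genes. Dusp6, a phosphatase that limits ERK, was at 110, 83.5 and 111 CPM in WT and at 44.8 and 78.7 CPM in KO (-0.78, SE 0.32, and 0.00759 without WT a), and Ier3 was higher in both batches (1.26, SE 0.31, and 0.78 without KO b). Of 29 BMP and Nodal genes, 3 were lower and 3 higher (10.3% each), which is not far from the shares over all genes, and the 6 became 12 without WT b. Id1, a target of BMP, was at 68.3, 29.4 and 57.5 CPM in WT and at 13.2 and 19.2 CPM in KO. Its log2 fold change was -1.58 (SE 0.36, and -0.78 without WT a). The ligand gene Bmp7 (1.28, SE 0.53, and 0.62 without KO b) and the receptor-regulated Smad9 (1.53, SE 0.48) were higher. Smad9 had 10, 3 and 9 counts in WT and 29 and 11 in KO, and passed the filter through samples other than WT.

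Imprinted genes, which are expressed from 1 parental allele, differed in both directions. Of 29 tested, 4 were higher and 7 lower with an unadjusted p under 0.05, and the median was -0.16. These are 13.8% and 24.1%, against 6.99% and 5.56% of all genes. These 11 were 6 without KO a and 6 without KO b. Plagl1, a zinc finger gene that is known to act on other imprinted genes, was at 3.004, 2.48 and 2.08 CPM in WT and at 0.39 and 0.46 CPM in KO. Its log2 fold change was -2.72 (SE 0.46, edgeR adjusted p = 0.0744). The signalling adaptor gene Grb10 was at 445, 270 and 355 CPM in WT and at 184 and 145 CPM in KO (-1.12, SE 0.25, and -0.64 without WT a), and the cell cycle inhibitor gene Cdkn1c at 83.3, 35.7 and 81.3 CPM in WT and at 25.6 and 22.8 CPM in KO (-1.28, SE 0.34, and -0.46 without WT a). Mest was lower with all samples (-0.95, SE 0.31) and stood at -0.20 without WT a. Rian, a maternally expressed noncoding RNA, was at 0.41, 0.39 and 0.54 CPM in WT and at 1.40 and 5.24 CPM in KO (2.66, SE 0.52). Usp29 was at 2.15, 7.60 and 2.53 CPM in WT and at 12.9 and 12.3 CPM in KO (1.48, SE 0.51, and 0.53 without WT a). None of these 6 genes, some of them chosen after their values were seen, overlapped between groups. Of all 29, both KO samples lay above all WT samples for 5 and below them for 7, against 13% and 10.5% of all genes.

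Among 71 genes of the cell cycle and DNA replication, 8 were lower and none higher with an unadjusted p under 0.05. The lower genes are 11.3%, against 5.56% of all genes. The median was -0.03, and for 66 the interval lay inside a 2-fold change. The 8 were 5 without WT a, KO a or KO b and 17 without WT b. The lower genes included regulators of the entry into S phase. The D-type cyclin gene Ccnd2 was at 77.4, 89.8 and 63.9 CPM in WT and at 26.7 and 37.9 CPM in KO (-1.42, SE 0.31, and -0.86 without WT a). Its partner kinase gene Cdk6 was at 55.4, 60.4 and 49.4 CPM in WT and at 29.8 and 38.8 CPM in KO (-0.77, SE 0.13, edgeR adjusted p = 0.0662). Cdkn2a, whose products inhibit this kinase and stabilise p53, was at 10.2, 9.23 and 17.6 CPM in WT and at 4.01 and 3.57 CPM in KO (-1.34, SE 0.27). The replication enzyme gene Top2a, the most abundant, stood at 0.07 (SE 0.11). Of 23 p53 targets 1 had an unadjusted p under 0.05, Perp (-0.62, SE 0.21), but 7 without WT a and 6 without WT b.

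Genes next to Hmga1 were examined after the value of Nudt3 was seen. Within 200000 bases of Hmga1, 6 other genes were tested. Nudt3, a phosphatase of inositol polyphosphates on the opposite strand (chr17:27716327-27760410), ends 15708 bases from the end of Hmga1. It was at 97.2, 75.8 and 82.8 CPM in WT and at 45.2 and 38.1 CPM in KO, with a log2 fold change of -1.05 (SE 0.11, edgeR adjusted p = 0.0224). The KO held 46.5% (a) and 50.2% (b) of the WT level. AI413582, on the strand opposite to Hmga1 and overlapping its end, was at 2.72, 2.56 and 1.74 CPM in WT and at 0.67 and 0.53 CPM in KO (-2.13, SE 0.38). Pacsin1, 91835 bases away, was at 4.90, 7.60 and 7.06 CPM in WT and at 21.3 and 15.5 CPM in KO (1.57, SE 0.33, and 0.97 without WT a). The other 3 had log2 fold changes between 0.20 and 0.70. Some lower genes picked by their small p lie elsewhere and are not described above. They were Lpar6, a receptor for lysophosphatidic acid (-1.62, SE 0.23), and Sh3bgrl (-0.98, SE 0.14). The GTPase gene Arl4a (-0.86, SE 0.13) and the zinc finger gene Zfp280c (-0.86, SE 0.15) were the others.

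For most genes of chromatin components the data limit the difference to under 2-fold, which is not a narrow limit. All 28 genes of the lamina, cohesin and condensin, all 24 of H3K9 heterochromatin and all 18 of DNA methylation and TET had intervals inside a 2-fold change. The lamin-associated Sun1, which links the nuclear envelope to the cytoskeleton, was at 99.2, 108 and 110 CPM in WT and at 135 and 147 CPM in KO (0.45, SE 0.11). Dnmt3a stood at -0.53 (SE 0.20, and -0.20 without WT a) and the H3K9 methyltransferase gene Suv39h1 at -0.46 (SE 0.17, and -0.26 without WT b). Of 31 Polycomb genes 29 were limited in this way, with Bmi1 at -0.90 (SE 0.30, and -0.36 without WT a). Among 30 genes of AT-hook and other AT-rich DNA binders, 6 were lower and none higher with an unadjusted p under 0.05. These are 20%, against 5.56% of all genes, and the 6 were 2 without WT a and 1 without the batch term. Satb1, an organiser of chromatin loops, was at 14.4, 13.9 and 12.9 CPM in WT and at 6.004 and 8.29 CPM in KO (-1.02, SE 0.22). Setbp1 (-0.72, SE 0.23) had groups that overlapped. Of 8 linker histone genes, 2 were higher with an unadjusted p under 0.05, H1f0 (0.54, SE 0.20) and Hist1h1t (0.86, SE 0.34). None was without WT a, KO a or KO b, and without WT a the values were 0.28 and 0.26. Of 58 core histone genes 1 was (8 without WT b), Hist1h2aa, a testis form, at 12.1, 27.5 and 10.04 CPM in WT and at 63.2 and 38.0 CPM in KO (1.38, SE 0.38, and 0.64 without WT a).

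The machinery of protein synthesis differed little. All 74 mitochondrial ribosomal protein genes and all 37 genes of ribosome biogenesis had intervals inside a 2-fold change, none had an unadjusted p under 0.05, and the medians were -0.02 and -0.08. Cytosolic ribosomal protein genes had a median of 0.12 (0.24 in batch a, 0.03 in batch b). Of 85, 9 were higher with an unadjusted p under 0.05 (10.6%, against 6.99% of all genes). None was without the batch term, where the median was -0.03, or without KO a, and 24 were without WT b, counted in either direction. Of 81 respiratory chain genes 7 were higher (8.64%, against 6.99% of all genes), with a median of 0.08, and 1 of the 81 had an unadjusted p under 0.05 without WT a or without the batch term. The largest differences were in the tissue-specific subunits Cox4i2 (1.10, SE 0.45), at 0.46 to 0.92 CPM in WT, and Cox7a1 (1.06, SE 0.38, and 0.54 without WT a), at 1.71 to 2.53 CPM. Sterol and fatty acid synthesis had a median of 0.16, which was 0.32 in batch a and 0.04 in batch b, and its 5 genes with an unadjusted p under 0.05 were 1 without WT a, KO a or KO b. Its largest difference was in the fatty acid desaturase gene Scd1, at 89.7, 111 and 65.7 CPM in WT and 152 and 158 CPM in KO (0.63, SE 0.14). In the amino acid stress response, 4 of 26 genes were higher and 1 lower (2 in all without KO a and 10 without WT a), with the stress proteins Nupr1 (1.01, SE 0.22) and Ddit3 (1.07, SE 0.45, and 0.46 without KO b) above WT in both KO samples. Heat shock (28 genes) and interferon response (27 genes) genes had medians of 0.00 to 2 decimals. Collagen genes were split, with 6 of 25 higher and 4 lower, and these 10 were 3 without WT a and 15 without WT b. Col26a1, under 1 CPM in every sample, was the highest (1.92, SE 0.53). It had 6, 5 and 6 counts in WT and 35 and 13 in KO, and passed the filter through samples other than WT. The WT mean was 10 or more for 23 of the 25, and 9 of these had an unadjusted p under 0.05. Col18a1, the most abundant in WT, was among the lower genes (-0.37, SE 0.11), while Col4a1 above and Col4a2 (-1.66, SE 0.80) had an unadjusted p over 0.05. For the clustered protocadherins, 22 of 23 intervals lay inside a 2-fold change, but members of a cluster share their last exons, so these counts overlap. Of 39 Hox genes 7 were tested, and 1 was lower with an unadjusted p under 0.05.

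Because Hmga1 binds AT-rich DNA, log2 fold changes were also set against position and base composition, for the 13639 tested genes (98.0%) with a match in the annotation. The median by chromosome was between -0.05 (chromosome 18) and 0.02 (chromosome 12) for the autosomes and X, and -3.15 for the 4 genes on Y. Across deciles of the AT content of the gene the median was -0.03 in the lowest, which has a median AT content of 43.9%, 0.06 in the third, and -0.07 in the highest (61.4%). In the highest decile 42 of 1364 genes were higher and 134 lower with an unadjusted p under 0.05. In the third decile, of the same size, the counts were 144 and 67. The lowest decile, also of 1364 genes, had 68 higher and 86 lower, so the counts did not follow AT content in 1 direction. Over all genes the shares were 6.99% higher and 5.56% lower. Within batch a the lowest decile was at -0.02 and the highest at -0.10, and within batch b they were at -0.03 and -0.04. The difference between the WT samples b and a moved far more with base composition, from -0.31 in the lowest decile to 0.32 in the highest. The correlation of AT content with these differences over the genes (Pearson's r) was -0.10 for the fitted values and 0.37 for WT b minus WT a. Genes share libraries and are not independent replicates, and the part of library composition in the small trend of the KO was not tested.

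**Figure D5:**
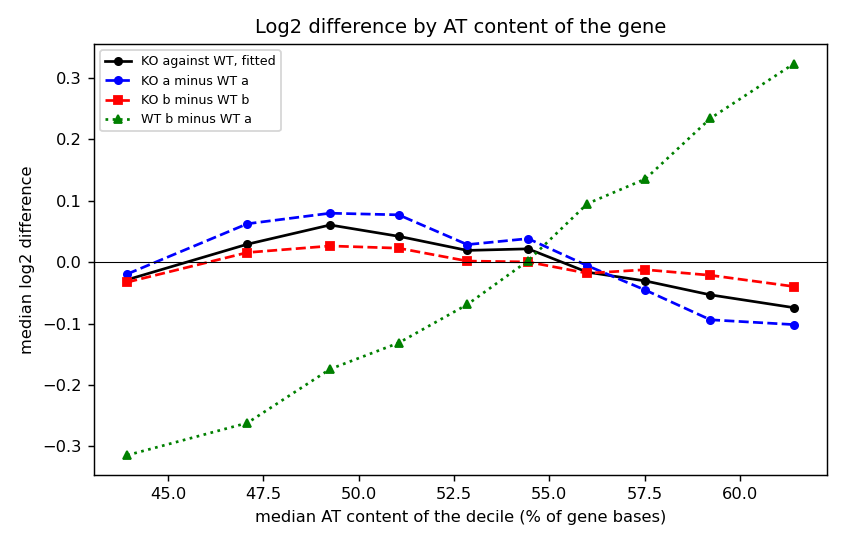
Median log2 difference (y axis) by decile of the AT content of the gene (x axis, median percent of the decile) for the fitted KO against WT, for each batch and for WT b minus WT a. The KO differences stay between -0.10 and 0.08, whereas the difference between 2 WT samples runs from -0.31 to 0.32.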

How the data were processed

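The authors removed the first 3 bases of 50 bp single-end reads from ribosome-depleted, strand-specific libraries, aligned them with Bowtie through QuasR (genome mm9), placed a read with several matches at 1 of them at random, and deposited whole-number counts per UCSC known gene, on the gene's strand. The submitters' notes name bcl2fastq 2.17. Members and lists were chosen with earlier results of these data known.

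Counts were normalized with TMM and fitted with edgeR 4.0.16 (R 4.3.3) for the 13912 genes whose counts averaged at least 10, in all 9 samples of the experiment with the letter as batch term. The filter, batch term and thresholds are those of the study, which fitted limma-trend, here an alternative. The term absorbs WT c. SE and 95% intervals derive from the quasi-likelihood F (median 8.29 degrees of freedom). CPM are TMM-scaled, within-batch differences use a prior count of 2, and RPKM use the deposited gene width. The letters were read as the batches of the methods, and the b minus a difference of WT had a correlation across genes of 0.53 with that of KO. P-values measure the spread between these samples. Annotation was GENCODE M1 on NCBIM37.

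Named were Hmga1, Hmga2, Tuba3a, Tuba3b, every called gene, the 10 genes higher and 10 lower with the smallest p (mean count of at least 50, same sign in both batches), Y-linked and HMG genes, and per list the 3 largest changes with the same sign in both batches and the most abundant member in WT. Members near 0 are given by their range. Chosen after their values were seen were Slc16a3, Tpi1, Pgk1, Slc2a1, Vegfa, Hif1a, Zscan4c, Usp17lc, Dppa3, Hormad1, Dazl, Piwil2, Sox11, Otx2, Sox7, Gata4, Grb10, Cdkn1c, Mest, Axin2, Fzd2, Pacsin1, AI413582, Notum, Krt7, Ascl2 and Tubb2b, and the window of 200000 bases around Hmga1. The table of the full-deletion experiment was not used here. A few items are not reported here.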

Additional observations from a re-analysis of the deposited data

How the results depend on the processing

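With 3 genes called by the main analysis, TMM against RLE size factors or summed counts, a minimum mean count of 50, limma-trend on either scale and batches a and b alone all gave 3. The 5 WT and KO samples fitted alone gave 2, Eif2s3y and Uty. Without a filter on low counts 17 genes were called, DESeq2 called 76, and an adjusted p under 0.05 gave 9, with or without a minimum fold. Without the replicate block (the batch term) 1 gene was called, Eif2s3y. Leaving out 1 sample gave between 0 and 62 calls, the 0 without either KO sample, where the spread of the remaining KO sample has to be taken from the other groups, and the 62 without WT b. The cause was not tested. The log2 fold change stayed between 2.50 and 3.02 for Tuba3a, between -5.36 and -4.61 for Eif2s3y, between -4.82 and -3.79 for Uty and between -1.60 and -1.02 for Hmga1 over the 15 alternatives. Genes named in the text that changed sign were Ctnnb1 without the block (-0.0654) and, with 1 sample left out, Hmga2 (-0.43 to 0.26), Uba1y (-1.47 to 0.29), Sparc (-0.81 to 0.29), Syce2 (-0.0903 to 0.37), Dusp6 (-1.37 to 0.00759) and Axin2 (-1.62 to 0.00584). With 2 KO samples and a batch b of 13465399 to 13491195 counts, genes with few counts had wide intervals, as given by level in the report.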
